A study of Mus musculus with 4 samples.

Results

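Imprinted genes, which are expressed mainly or only from the allele inherited from 1 parent, were measured in sorted basal epidermal cells of wild type and Ezh2 knockout embryos. The set held 37 named mouse genes of known imprinted clusters, and its members were taken as every probe set annotated to exactly 1 of those symbols. By background knowledge 17 of the 37 are expressed from the maternal allele, 19 from the paternal allele, and 1, Gnas, from either allele depending on the transcript. The platform annotation gave a single-symbol probe set to 34 of the 37 genes, 88 probe sets in all. Of these genes, 29 (14 maternally expressed, 14 paternally expressed and Gnas) had a probe set with a mean signal above the intensity filter, among 12703 genes tested. H19, Rtl1 and Zrsr1 had no single-symbol probe set and were not analysed here, H19 because its probe set is listed with several symbols. Kcnq1, Peg12, Snrpn, Usp29 and Zim1 lay below the filter. For Snrpn this rests on 1 probe set, since 6 others are listed with several symbols and were not used. Its level is therefore left undecided here.

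RNA came from skin basal cells at embryonic day 16, sorted by flow cytometry, in mice of mixed C57 and CD1 strain. There were 4 Affymetrix arrays, 2 of wild type (WT) and 2 of a conditional Ezh2 knockout (Ezh2cKO), numbered replicate 1 and 2 in each genotype. All 4 shared age, strain mix, extraction kit and labelling facility, per the labels. The sources used here do not say which Cre line or which deleted exons made the knockout, nor whether a sample held 1 embryo or several. The p-values therefore cover the variation among these 4 samples alone, and part of it may be technical. Signals are given with replicate 1 first in each genotype. The comparison asks whether the RNA level of a member differs where Ezh2 has been deleted. The arrays measure total RNA of a gene and do not tell its alleles apart. The maternal and paternal labels below therefore describe which allele is known to be expressed, not a measured allele. For some members, such as Sfmbt2 and Cd81, that knowledge comes mainly from extraembryonic tissue. Whether each label holds in basal epidermis was not measured.

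At an imprinted cluster, DNA methylation placed in the egg or the sperm marks a control region, and that mark decides which parental copy of each neighbouring gene is used. In some clusters a long noncoding RNA made from the paternal copy, such as Kcnq1ot1, silences neighbouring genes on the same chromosome, and Polycomb repressive complex 2, whose catalytic subunit is Ezh2, takes part in that silencing, best known in the placenta. Many imprinted genes regulate fetal growth: Igf2 drives it, while Igf2r, Cdkn1c, Grb10 and Phlda2 restrain it.

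Ezh2 itself had signals of 3336 and 3603 in WT against 661 and 1308 in Ezh2cKO, so the targeted transcript was lower on both knockout arrays but still measured. Median signals of the arrays were 91.6 and 137 in WT replicates 1 and 2 and 87.4 and 148 in Ezh2cKO replicates 1 and 2, so the arrays numbered 1 and those numbered 2 differed from each other. Markers of basal epidermis were bright, with a summed signal over 11 measured markers of 97853 and 86661 in WT and 93592 and 89801 in Ezh2cKO. Markers of dermal fibroblasts were bright as well, all 12 measured ones being above the filter, with sums of 81941 and 92577 in WT and 77761 and 97399 in Ezh2cKO. Summed signals of 10 endothelial markers were 11666 and 12926 in WT and 6497 and 13786 in Ezh2cKO, the lowest being Ezh2cKO replicate 1. No marker of these lists was listed at 0. The levels below therefore belong to a sorted fraction in which epidermal and mesenchymal transcripts were both abundant, and in such bulk samples fewer cells of a type and less RNA per cell cannot be told apart. Of 11 markers of the differentiating suprabasal layers, 6 were separated upwards in Ezh2cKO and 0 downwards (54.5% upwards, against 8.52% of all genes). Their median log2 difference was 0.39, and none passed limma's adjusted threshold (4 higher at an unadjusted p under 0.05). The 6 were Dsc1, Ivl, Lor, Flg, Lce1c and Lce1a2. Krt1, Krt10, Krtdap and Sbsn overlapped between genotypes, with log2 differences of 0.16, 0.076, 0.027 and 0.069, and so did Dsg1a, with -0.12. Flg, the filaggrin of the granular layer, had 23.8 and 29.5 in WT against 169 and 184 in Ezh2cKO, and Lce1c, a cornified envelope protein, had 69.2 and 41.4 in WT against 1007 and 269 in Ezh2cKO. The summed suprabasal signals were 53440.4 and 45822 in WT and 60446 and 52071 in Ezh2cKO, so the sums overlapped between genotypes. Summed signals were far lower for markers of skeletal muscle (1034 and 1527 in WT and 1219.8 and 1496 in Ezh2cKO), immune cells (1447 and 963 in WT and 1674 and 1363 in Ezh2cKO) and erythroid cells (384 and 404 in WT and 310.3 and 400.4 in Ezh2cKO). Xist, the RNA of the silenced X chromosome in females, had a signal of 86.9 on Ezh2cKO replicate 1 and between 8669 and 11333 on the others. The Y-linked genes Kdm5d, Eif2s3y and Uty were highest on Ezh2cKO replicate 1 but were measured on every array. Kdm5d had 118 and 287 in WT against 494 and 231 in Ezh2cKO. Eif2s3y had 222 and 535 against 861 and 404, and Uty 134 and 286 against 354 and 218. Markers of sex thus differed among the arrays, and the part of sex in the values below was not tested.

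Across the imprinted genes, most signals differed little between the genotypes. The largest differences were those of Sfmbt2, which was higher on both Ezh2cKO arrays, and Ascl2, which was lower on both. Of the 29 members tested, 22 had a log2 difference (Ezh2cKO minus WT, computed on log2(signal + 16), which understates changes of dim genes) within 0.25 of 0. The other 7 were Sfmbt2, Phlda2 (0.47), Slc22a18 (0.32), Nnat (0.27), Igf2r (-0.32), Mest (-0.43) and Ascl2. The 22 are 75.9% of the members, and 82.1% of all 12703 genes. The median log2 difference was -0.053 over the 14 maternally expressed genes, 0.0085 over the 14 paternally expressed genes and -0.0035 over all genes. Within number 1 the medians were -0.099 for maternal and -0.07 for paternal genes, and within number 2 they were 0.0099 and 0.053, against 0.016 and -0.015 over all genes. Neither allele class had a median that lay far from that of all genes in either number. A direction shared within both numbers was found in 9 members upwards and 9 downwards, where 25.2% of all genes were higher and 25.6% lower within both numbers.

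No member passed limma's threshold of an adjusted p of 0.05 over all probe sets, and neither did any of the 27022 probe sets tested (0.0%), of which 94 were higher (0.348%) and 16 lower (0.0592%) at an unadjusted p under 0.05. At an unadjusted limma p under 0.05, 1 member (Sfmbt2) was higher and 0 were lower, where 0.527% of all genes were higher and 0.0787% were lower. Every member had limma's adjusted p of 0.999979. With 2 arrays against 2, a two-sided exact permutation test of a single gene cannot go below p = 0.333. The 95% confidence intervals of the members' log2 differences had half-widths from 0.30 to 2.11, with a median of 0.76, and 28 of 29 held 0. A p that misses the threshold therefore does not show equal levels: 18 of the 29 half-widths were under 1, which is a 2-fold difference.

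Values of both Ezh2cKO arrays lay above both WT arrays in 4 members, or 13.8%, against 8.52% of all genes. They lay below in 1 member, or 3.45%, against 8.39%. The 4 higher members, Sfmbt2, Nnat, Sgce and Ddc, all carried the paternal label (28.6% of 14). The lower member, Ascl2, carried the maternal label (7.14% of 14), and these labels may not hold in this tissue. This split was not tested, and of its 5 genes only Sfmbt2 and Ascl2 kept their place under every scaling tried: with arrays scaled to a common median, Sfmbt2 and Slc22a18 were separated upwards and Ascl2, Dlk1 and Mest downwards.

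**Figure D1:**
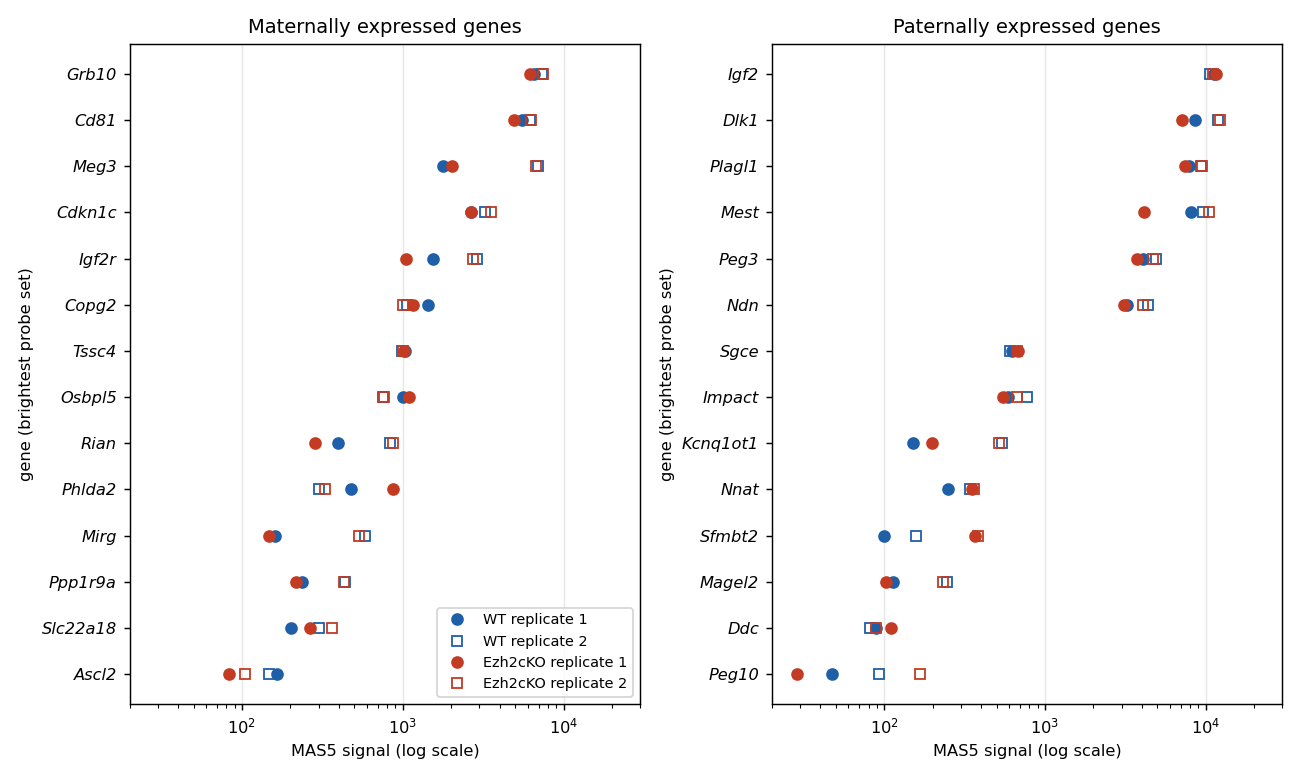
MAS5 signal (log axis) of the brightest probe set of the 14 maternally and 14 paternally expressed members on each of the 4 arrays. Blue symbols are WT and red Ezh2cKO, filled circles are replicate 1 and open squares replicate 2. Symbols of the genotypes overlap in most rows, Sfmbt2 and Ascl2 being the rows where red and blue stand clearly apart, while Meg3, Mirg, Rian and Kcnq1ot1 split by replicate number. Gnas, with signals between 12449.9 and 14086, is not drawn.

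Sfmbt2, a protein with MBT domains related to Polycomb group factors and imprinted in extraembryonic tissue and early embryos, had the largest positive difference among the members without passing the adjusted threshold. Its brightest probe set had signals of 99.2 and 158 in WT against 365 and 384 in Ezh2cKO. Both Ezh2cKO values lay above both WT values with a wide gap, and the Ezh2cKO arrays lay close together. The means were 129 ± 41.7 and 375 ± 13.7 (SD, n = 2), a log2 difference of 1.46 (SE 0.33, 95% interval 0.64 to 2.29). Signals in Ezh2cKO exceeded those in WT by factors of 3.68 in number 1 and 2.43 in number 2. Limma gave an unadjusted p of 0.00555. Of the 12703 genes tested, 15 had a larger positive difference, and a log2 difference of at least 0.5 in either direction was found in 2 of the 29 members (Sfmbt2 and Ascl2) and in 4.2% of all genes. The other probe set of Sfmbt2 lay below the filter, with 0.903 and 3.46 in WT against 30.1 and 43.7 in Ezh2cKO, and showed the same order of the genotypes. Its WT values lay at the bottom of the scale, so no fold is given for it. The difference from the brightest probe set lay between 1.20 and 1.57 over pseudocounts of 64 and 1, and leaving out single arrays gave 1.16 to 1.76. That range includes the fit without Ezh2cKO replicate 1, the array with low Xist and endothelial signals. The separated suprabasal markers named above were higher on the same arrays, and their part in the Sfmbt2 value was not tested. The measured genes on either side of Sfmbt2 overlapped between genotypes: Itih5 had a log2 difference of -0.30 and Prkcq of 0.26.

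Ascl2, a bHLH transcription factor needed in the placenta and part of the Kcnq1 cluster, went the other way. Its brightest probe set had signals of 166 and 148 in WT against 82.7 and 104 in Ezh2cKO. Both Ezh2cKO values lay below both WT values. The means were 157 ± 12.4 in WT and 93.5 ± 15.3 in Ezh2cKO (SD, n = 2), with a log2 difference of -0.67 (SE 0.387, 95% interval -1.64 to 0.31), so the interval held 0. The ratio to WT was 0.499 within number 1 and 0.704 within number 2. Of the 12703 genes tested, 73 had a larger negative difference. Leaving out single arrays gave -0.81 to -0.52, with -0.52 without Ezh2cKO replicate 1. Pseudocounts of 1 and 64 gave -0.75 and -0.49, the latter under the log2 0.5 used above. The remaining 2 probe sets, both below the filter, showed the same order of the genotypes, with 89.1 and 80.4 in WT against 40.9 and 58.0 in Ezh2cKO for 1 and 91.5 and 63.3 in WT against 33.4 and 37.5 in Ezh2cKO for the other. All 3 probe sets of Ascl2 thus had non-overlapping genotypes, but 2 of them are of a design type (_s_at) that can detect several transcripts, and probe sets of a gene measure the same RNA samples. The nearest measured genes outside the gene lists used here were Igf2os, at 0.031, and Tspan32, at 0.21.

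**Figure D2:**
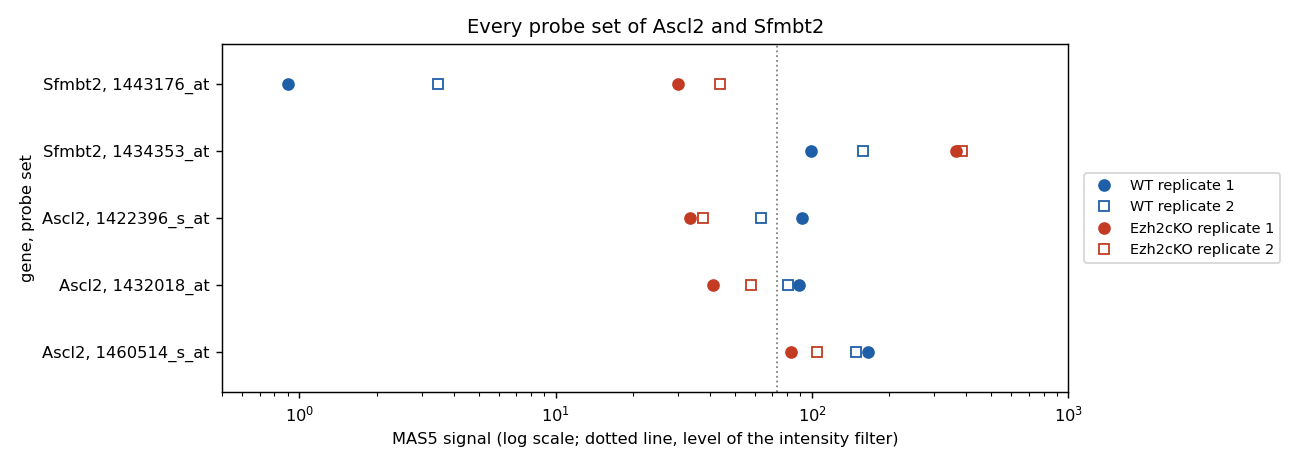
MAS5 signal (log axis) of all 2 probe sets of Sfmbt2 and all 3 of Ascl2 on the 4 arrays, 1 row per probe set, WT in blue and Ezh2cKO in red, with replicate 1 filled and replicate 2 open. In each row the red and blue symbols do not overlap, red lying to the right for Sfmbt2 and to the left for Ascl2, and 3 of the 5 rows have a mean below the dotted filter level of 73.2.

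The promoters of the separated members with the highest and lowest moderated t are shown because Polycomb repressive complex 2 is known to occupy promoters rich in CG dinucleotides. Each window runs from 250 bases before to 50 bases after an annotated start (RefSeq, GRCm38.p6), 5′ to 3′, with CG dinucleotides in capitals. Sfmbt2 has 2 annotated windows.
Sfmbt2 promoter window, chr2:10370201-10370500, plus strand: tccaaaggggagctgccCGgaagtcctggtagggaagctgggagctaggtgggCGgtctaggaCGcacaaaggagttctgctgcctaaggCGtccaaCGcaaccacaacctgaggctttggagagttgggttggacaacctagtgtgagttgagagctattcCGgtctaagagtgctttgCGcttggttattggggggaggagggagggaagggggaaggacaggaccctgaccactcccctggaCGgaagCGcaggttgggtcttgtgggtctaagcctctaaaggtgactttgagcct
Sfmbt2 promoter window, chr2:10372186-10372485, plus strand: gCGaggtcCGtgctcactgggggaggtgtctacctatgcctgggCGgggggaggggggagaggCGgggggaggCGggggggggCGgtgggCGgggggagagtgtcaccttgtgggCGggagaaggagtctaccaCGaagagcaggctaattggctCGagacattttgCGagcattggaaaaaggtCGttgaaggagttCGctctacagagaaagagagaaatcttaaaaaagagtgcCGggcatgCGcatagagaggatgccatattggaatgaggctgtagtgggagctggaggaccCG
Nnat promoter window, chr2:157559828-157560127, plus strand: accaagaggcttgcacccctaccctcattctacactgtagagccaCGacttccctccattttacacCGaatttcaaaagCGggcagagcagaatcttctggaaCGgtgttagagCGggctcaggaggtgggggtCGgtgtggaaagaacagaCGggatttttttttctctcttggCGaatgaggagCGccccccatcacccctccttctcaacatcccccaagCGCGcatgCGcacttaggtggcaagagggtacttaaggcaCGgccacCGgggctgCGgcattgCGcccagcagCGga
Ascl2 promoter window, chr7:142969215-142969514, minus strand: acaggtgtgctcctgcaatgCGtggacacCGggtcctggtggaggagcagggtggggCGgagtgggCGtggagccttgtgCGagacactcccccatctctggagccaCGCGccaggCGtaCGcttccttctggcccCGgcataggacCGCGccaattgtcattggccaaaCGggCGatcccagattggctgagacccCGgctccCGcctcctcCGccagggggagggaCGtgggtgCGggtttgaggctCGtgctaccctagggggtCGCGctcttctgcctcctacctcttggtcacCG
The Sfmbt2 windows held 9 and 16 CG dinucleotides, the Nnat window 17 and the Ascl2 window 23, where all 32851 windows of the table had a median of 7. Of all windows, 54.2% and 67.0% had fewer than the Sfmbt2 windows, 68.6% fewer than Nnat and 78.5% fewer than Ascl2. The gene that was lower in Ezh2cKO had the most CG of these 4 windows. Over the 48 windows of the 30 members in the table, the median was 13, with 20 for the 19 windows of maternal members and 10 for the 25 windows of paternal members. The hexamer TGCCGC, the sequence bound by the imprint-protecting zinc finger protein ZFP57, was searched on both strands, and it occurred in 11 of the 48 member windows (22.9%) and in 11.6% of all windows. The hexamer itself holds a CG, and the median CG count was 13 in member windows against 7 in all windows. The shares were not adjusted for that. Some members had several windows, and Mest was counted more than once among the 11, so these windows are not separate genes. Among the printed windows the hexamer occurred in that of Nnat alone. A match is a description of the letters and not a bound site.

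The other members separated upwards differed by small amounts. Nnat, a small membrane proteolipid known from neurons, had signals of 251 and 344 in WT against 351 and 364 in Ezh2cKO. The upper WT value and the lower Ezh2cKO value lay close together. Its log2 difference was 0.27 (SE 0.272), 0.46 within number 1 and 0.076 within number 2. Sgce, which encodes epsilon-sarcoglycan of the dystrophin-associated complex, had 620.4 and 606 in WT against 679.7 and 674 in Ezh2cKO. These values were tight within each genotype and a small step apart, with a log2 difference of 0.14 (SE 0.199). Ddc, the decarboxylase that makes dopamine and serotonin, lay close to the filter with 88.4 and 81.5 in WT against 111 and 89.4 in Ezh2cKO. Its log2 difference was 0.20 (SE 0.452), and the upper WT and lower Ezh2cKO values nearly met. Leaving out single arrays moved Nnat over 0.052 to 0.49, lowest without WT replicate 1, and Ddc over 0.063 to 0.33, lowest without Ezh2cKO replicate 1, while Sgce stayed within 0.12 to 0.16.

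Among members that set fetal growth, Igf2, Grb10 and Cdkn1c were bright and had log2 differences between -0.035 and 0.064, while Igf2r and the dimmer Phlda2 differed more, mainly within number 1. Igf2, the fetal growth factor, had signals of 11298 and 10624 in WT against 11582 and 11159 in Ezh2cKO. These were among the highest signals of the set, higher on the Ezh2cKO array of each number but with overlapping genotypes, and the log2 difference was 0.053 (SE 0.121, 95% interval -0.25 to 0.36). A dimmer Igf2 probe set gave -0.17. Igf2r, the receptor that removes IGF2 from the cell surface, had 1544 and 2900.3 in WT against 1046 and 2723 in Ezh2cKO. The arrays numbered 2 were high and those numbered 1 low in both genotypes, and the genotype difference was -0.55 within number 1 and -0.09 within number 2. A second Igf2r probe set of similar signal had 1075 and 2575 in WT against 1150.1 and 2659 in Ezh2cKO, with differences of 0.096 and 0.046, so the direction of the Igf2r difference depended on the probe set, and the mean over both was -0.13. Grb10, an adaptor that dampens signalling of the insulin and IGF receptors, had 6563 and 7348 in WT against 6203 and 7404 in Ezh2cKO, with a log2 difference of -0.035 (95% interval -0.43 to 0.36).

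Cdkn1c, the cyclin-dependent kinase inhibitor p57 and a gene of the Kcnq1 cluster, had 2647 and 3256 in WT against 2652 and 3551 in Ezh2cKO. Within number 1 the genotypes were nearly equal, and within number 2 the ratio was 1.09. Its log2 difference of 0.064 (95% interval -0.47 to 0.60) had an upper bound under a doubling. Phlda2, a growth-restraining gene of the same cluster and singled out once its values were known, had 478 and 304 in WT against 867 and 329 in Ezh2cKO. Its ratio of Ezh2cKO to WT was 1.82 in number 1 and 1.08 in number 2, and the genotypes overlapped because WT replicate 1 lay above Ezh2cKO replicate 2. Without Ezh2cKO replicate 1 its log2 difference was -0.20, against 0.47 with all arrays. That fit sets Ezh2cKO replicate 2 against both WT arrays, and Phlda2 was lower in number 2 in both genotypes. Within number 2 alone the difference was 0.11. The 8 measured members of the Kcnq1 cluster ranged from -0.67 (Ascl2) to 0.47 (Phlda2), with no common direction.

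The rest of the insulin-like growth factor pathway, from a list of 15 ligands, receptors, binding proteins and adaptors, gave 1 gene separated upwards and 1 downwards of 13 tested (7.69% each, near the 8.52% and 8.39% of all genes), and 0 passed limma's adjusted threshold (0 at an unadjusted p under 0.05). Its median log2 difference was -0.049. The gene separated upwards was Igf2bp1, with 1043 and 933 in WT against 1489 and 1053 in Ezh2cKO, named after its values were seen. The gene separated downwards was Insr, the insulin receptor, with 587 and 584 in WT against 442 and 459 in Ezh2cKO. Irs2, an adaptor below these receptors, had 205 and 406 in WT against 405 and 528 in Ezh2cKO, and Igfbp2, an IGF-binding protein, had 7512 and 5876 in WT against 9497 and 7344 in Ezh2cKO. Irs2 and Igfbp2 were higher in Ezh2cKO within both numbers but overlapped between them.

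The bright paternally expressed genes overlapped between the genotypes as well. Dlk1, a membrane ligand related to Notch ligands, had 8566 and 11999 in WT against 7166 and 12296 in Ezh2cKO, a log2 difference of -0.11. Plagl1, a zinc finger regulator of other imprinted genes, had 7888 and 9357 in WT against 7394 and 9491 in Ezh2cKO, at -0.036. Peg3, a zinc finger protein, had 4071 and 4902 in WT against 3720.0 and 4699 in Ezh2cKO, at -0.095. Each was lowest on Ezh2cKO replicate 1 and higher on the arrays numbered 2. Ndn, a MAGE family protein of postmitotic neurons, had 3226 and 4396 in WT against 3117 and 4056 in Ezh2cKO, at -0.082. Mest, a hydrolase-fold protein of embryonic mesoderm, had 8131 and 9683 in WT against 4147 and 10419 in Ezh2cKO. Of its 4 values 3 were close together and Ezh2cKO replicate 1 stood apart well below them, so that the log2 difference was -0.97 within number 1 and 0.11 within number 2. A difference of at least log2 0.9 downwards within number 1 was found in 1 of the 29 members (Mest) and in 1.3% of all genes. Without Ezh2cKO replicate 1 the Mest difference was 0.23. The summed endothelial markers were also lowest on that array, with a median log2 difference over the 10 markers of -0.87 within number 1 and 0.094 within number 2, while the 12 fibroblast markers had -0.13 and 0.062. The part of these cells in the Mest value was not tested.

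Among the other bright members, Gnas, which encodes the stimulatory G protein alpha subunit and whose locus makes transcripts from either parental allele, had 14086 and 13165 in WT against 12449.9 and 13197 in Ezh2cKO, a log2 difference of -0.087 (95% interval -0.39 to 0.21). Its brightest probe set can detect several transcripts, so the imprinted transcripts of the locus are not told apart by it. Cd81, a tetraspanin imprinted mainly in the placenta, had 5507 and 6167 in WT against 4919 and 6254 in Ezh2cKO, at -0.071. Apart from Mest, the 11 bright members that overlapped between genotypes lay between -0.32 and 0.074 on the log2 scale. Of the 14 members with several probe sets above the filter, 13 had probe sets whose differences had opposite signs, so for these 13 the sign of the difference depends on the probe set.

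**Figure D3:**
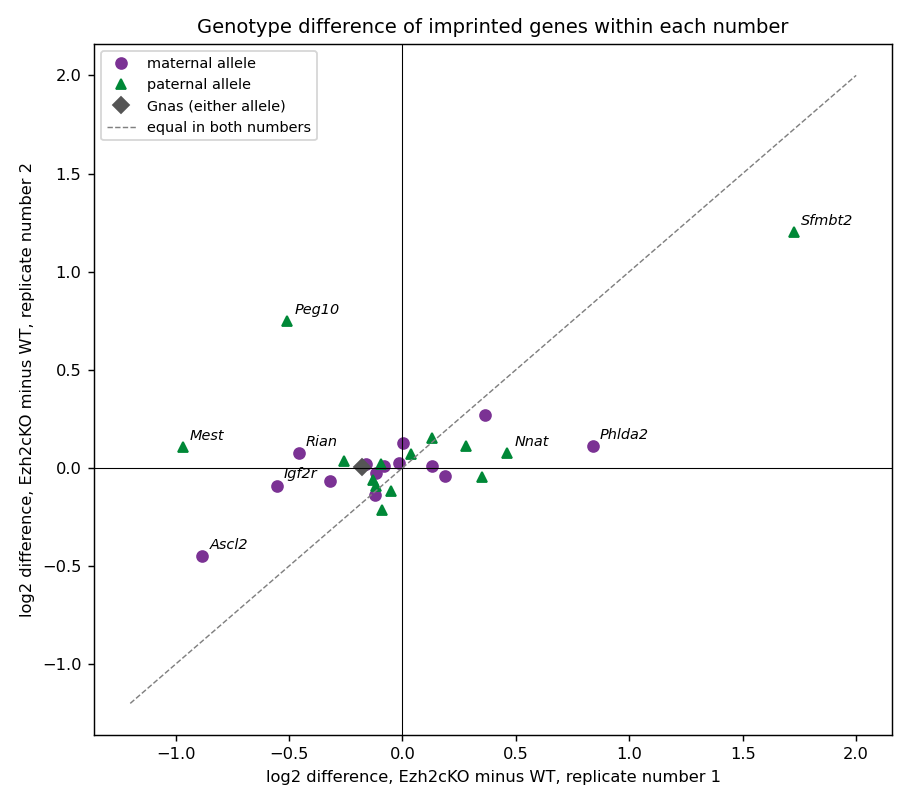
Log2 difference (Ezh2cKO minus WT, log2(signal + 16)) of the 29 members within replicate number 1 (horizontal) and within number 2 (vertical), 1 array per genotype in each, with maternally expressed genes as circles, paternally expressed genes as triangles and Gnas as a diamond. Sfmbt2 lies far to the upper right (1.73 and 1.20) and Ascl2 to the lower left (-0.88 and -0.45), while Mest and Peg10 have opposite signs in the 2 numbers and most members lie near 0.

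Noncoding RNAs of the imprinted clusters differed far more between the replicate numbers than between the genotypes. Meg3, a maternally expressed long noncoding RNA, had 1778 and 6977 in WT against 2029.9 and 6783 in Ezh2cKO. The arrays numbered 2 were high and those numbered 1 low in both genotypes, by 3.92-fold in WT and 3.34-fold in Ezh2cKO, while its genotype difference was 0.074 (SE 0.806). Over the 5 Meg3 probe sets with a mean signal over 1000, number 2 was 3.92 to 6.73 times number 1 in WT and 3.34 to 8.07 times in Ezh2cKO. Over all 11 Meg3 probe sets above the filter these ratios ran from 1.09 to 17.6 and from 2.04 to 8.07. The following genes of this group were named after their values were seen. Rian, which hosts small nucleolar RNAs and follows Meg3 on the chromosome, had 398 and 828 in WT against 286 and 872 in Ezh2cKO. Mirg, a miRNA host beyond Rian with 10 annotated hairpins inside its bounds, had 162 and 586 in WT against 147 and 532 in Ezh2cKO. Kcnq1ot1, the silencing RNA of the Kcnq1 cluster and paternally expressed, had 151 and 538 in WT against 198 and 521 in Ezh2cKO. In these 3 genes, too, both arrays numbered 2 lay above both arrays numbered 1.

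A signal at least 2-fold higher on the log2 scale in number 2 in both genotypes was found in 5 of the 29 members (17.2%), against 1.9% of all genes. These were all 4 noncoding members and Magel2, a MAGE family gene of the Snrpn cluster with 113 and 247 in WT against 103 and 231 in Ezh2cKO, named after its values were seen. Of these, Meg3, Rian and Mirg follow each other in 1 cluster and need not vary independently, so the share does not count separate events. Of the 12 members with a mean signal of at least 1511, 1 (Meg3) met the rule, against 0.945% of all genes that bright. With arrays scaled to a common median 1 member met it (Mirg), against 0.496% of all genes, and with quantile normalization 3 did (Meg3, Mirg and Kcnq1ot1), against 1.07%. With the kept probe sets of each gene averaged, 7 did, against 2.13%, the coding genes Igf2r and Ppp1r9a being added. Dimmer probe sets of other coding members, such as Plagl1 and Grb10, also met it, so the split by coding status depends on the probe set taken. No member was 2-fold lower in number 2 in both genotypes, against 0.394% of all genes. The median log2 difference between the numbers was 1.74 in WT and 1.65 in Ezh2cKO over the 4 noncoding members. Over all 358 tested genes annotated as long noncoding RNA it was 0.29 and 0.42, and 20 of them met the 2-fold rule. The share of members that were higher in number 2 in both genotypes by any amount was 20 of 29, against 35.5% of all genes. That median was 0.25 in WT and 0.29 in Ezh2cKO over the 25 coding members, -0.028 and -0.049 over all genes, and 0.34 and 0.55 over the 12 fibroblast markers. The part of the fibroblast transcripts, or of the array number as such, in these values was not tested.

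Scaling the arrays to a common median moved the median of all genes between the numbers to -0.59 in WT and -0.79 in Ezh2cKO, because the arrays numbered 2 had the higher medians. On that scale Meg3 was 1.39 higher in number 2 in WT and 0.98 in Ezh2cKO (log2), and Kcnq1ot1 1.18 and 0.61. This scaling moves all genes of an array alike, so it does not alter a gene's place relative to the rest. With quantile normalization the log2 differences relative to the median of all genes were 2.14 and 2.01 for Meg3 and 1.56 and 1.18 for Kcnq1ot1. The genotype difference within each number was small beside this: 0.19 and -0.041 for Meg3, -0.12 and -0.14 for Mirg, -0.46 and 0.074 for Rian and 0.35 and -0.045 for Kcnq1ot1. Dlk1, the coding gene at the other end of the Meg3 cluster, was 1.40-fold and 1.72-fold higher in number 2, less than the noncoding RNAs of its cluster.

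**Figure D4:**
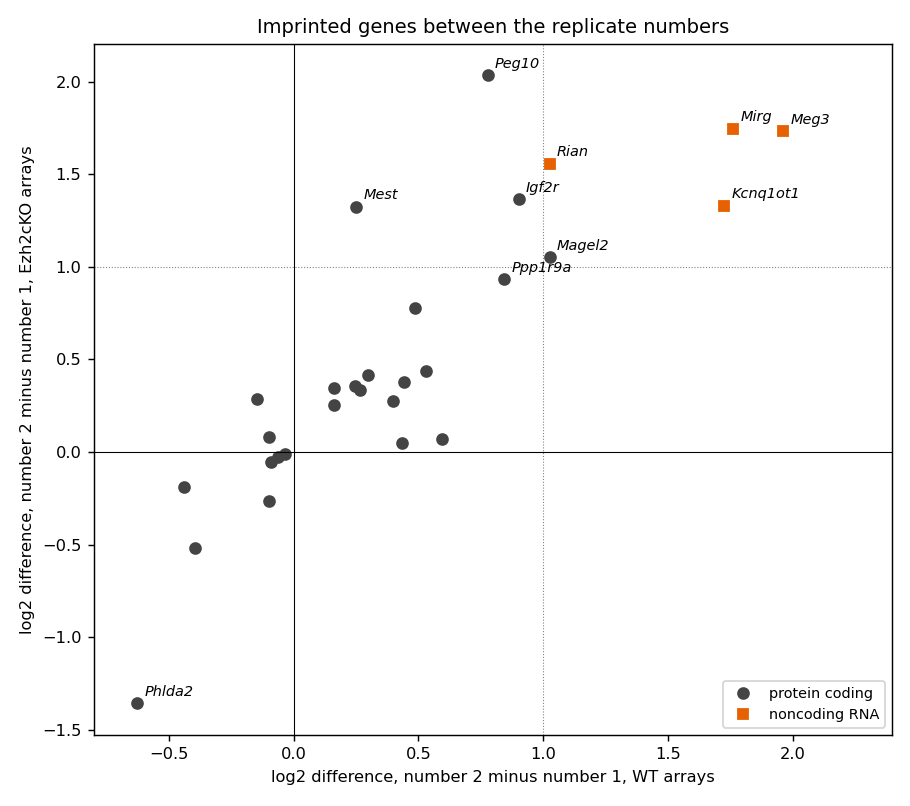
Log2 difference between the arrays numbered 2 and those numbered 1 for the 29 members, in WT (horizontal) and in Ezh2cKO (vertical), 1 array per number in each genotype, with protein-coding genes as circles and noncoding RNAs as squares and dotted lines at a 2-fold difference. The 4 squares and Magel2 lie beyond both dotted lines, and Phlda2 is the only member more than 2-fold lower in number 2 in a genotype.

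The 12 tested members that were neither bright nor separated lay between log2 -0.19 and 0.47, Phlda2 being the highest. Tssc4, a splicing-related protein of the Kcnq1 cluster, had 1027 and 983 in WT against 1016 and 999 in Ezh2cKO, nearly level over the 4 arrays. Copg2, a coatomer subunit whose gene neighbours Mest, had 1443 and 1059 in WT against 1154 and 1010.3 in Ezh2cKO. Its arrays numbered 1 both lay above those numbered 2, the reverse of the noncoding RNAs, and the same held for Osbpl5, an oxysterol-binding protein whose ratio of number 2 to number 1 was 0.757 in WT and 0.694 in Ezh2cKO. Ppp1r9a, a regulator of protein phosphatase 1, had 238 and 439 in WT against 218 and 432 in Ezh2cKO, split by number in the direction of the noncoding RNAs. Slc22a18, a transporter, was higher in Ezh2cKO within both numbers, with 202 and 299.5 in WT against 265 and 365 in Ezh2cKO on its brightest probe set. Its other probe set, of similar signal, was lower within both, with 303 and 243 in WT against 269 and 191 in Ezh2cKO, and the mean over both gave 0.038. Impact, a regulator of the translation kinase GCN2, was lower within both, with 585 and 777 in WT against 549 and 667 in Ezh2cKO. Peg10, a retrotransposon-derived gene of the placenta, was dim and scattered, with 47.5 and 92.8 in WT against 28.6 and 167 in Ezh2cKO. All in this paragraph were named after their values were seen. The 5 members below the filter were not tested, and their brightest single-symbol probe sets had mean signals from 20.7 (Snrpn) to 64.8 (Usp29). The value of Snrpn leaves out its probe sets with several symbols.

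Genes that write, read or protect imprints, from a list of 23 with 20 tested, were separated downwards in 5 of 20 and upwards in 0, against 8.39% and 8.52% of all genes. Among the 5 was Ezh2 itself, the deleted gene, and the others were Ezh1, Arid4a, Arid4b and Zfp445. Zfp445 was almost tied within number 1, with 3258.8 and 3360 in WT against 3258.6 and 3046 in Ezh2cKO. Arid4b was close within number 1 as well, with 1153.4 and 1153.9 in WT against 1144 and 1021 in Ezh2cKO. The median log2 difference was -0.057, none passed limma's adjusted threshold, and apart from Ezh2 none had an unadjusted limma p under 0.05. Ezh1, the paralog of Ezh2, had 503 and 468 in WT against 377 and 388 in Ezh2cKO, and Arid4a, a chromatin protein that acts at the Snrpn control region, had 418 and 365 in WT against 357 and 289 in Ezh2cKO. Zfp57, which protects methylated control regions, had 119 and 299 in WT against 147 and 384 in Ezh2cKO, with the arrays numbered 2 above those numbered 1, and Dnmt1, the maintenance DNA methyltransferase, had 5056 and 5402 in WT against 5079 and 4810.5 in Ezh2cKO. Both are named after their values were seen, and neither separated by genotype.

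Among 17 tested genes of a list of 30 other loci reported as imprinted in mouse, 2 were separated upwards and 2 downwards (11.8% each, against 8.52% and 8.39% of all genes), and 0 passed limma's adjusted threshold (1 at an unadjusted p under 0.05, Atp10a). Their median log2 difference was -0.026. Atp10a, a phospholipid flippase of the Snrpn region, had 246 and 255 in WT against 491 and 361 in Ezh2cKO, higher on both Ezh2cKO arrays (unadjusted p = 0.0421 by limma, not an exact test). Zim3, a zinc finger gene of the Peg3 region, had 97.7 and 92.5 in WT against 61.7 and 60.2 in Ezh2cKO, and Blcap, which lies around Nnat, had 1117 and 1031 in WT against 899.5 and 968 in Ezh2cKO, both lower on both Ezh2cKO arrays. Airn, the noncoding RNA that silences Igf2r in other tissues and was picked out after its values were known, had 197 and 648 in WT against 216 and 603 in Ezh2cKO, split by replicate number as the noncoding members were. In this list 4 of the 17 tested genes were at least 2-fold higher on the log2 scale in number 2 in both genotypes, against 1.9% of all genes. Besides Airn they were the protein-coding genes Asb4, Tfpi2 and Tnfrsf23, named after their values were seen. In this list the split was thus not limited to noncoding RNAs. The 31 nearest measured genes outside these lists, on either side of the members, had a median log2 difference of 0.011, with 1 separated upwards (3.23%, against 8.52%) and 2 downwards (6.45%, against 8.39%). Some of them, such as Igf2os beside Igf2 and Snhg14 near Ndn, lie within imprinted clusters, so they are not a set of genes free of imprinting.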

How the data were processed

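RNA of 4 samples was hybridised to Affymetrix mouse arrays, and the authors deposited 1 MAS5 signal intensity per probe set and array (per the submitters' processing notes, which give no version), on a linear scale with a mean after trimming 2% at each end of 500.0 on each array. No raw data or detection calls were used here. Leaving out 64 control rows kept 45037 probe sets. Of these, 34945 had 1 symbol, 932 had several and 9160 had none in the platform annotation. Symbols were updated by gene identifier (34741 matched to RefSeq, GRCm38.p6). Probe sets with a mean signal in the upper 60% (at least 73.2) were kept, 27022 in all, and a gene was represented by its brightest kept probe set. The comparison of genotypes used limma (version 3.58.1, R 4.3.3) on log2(signal + 16) (intensity trend, no block), with p-values adjusted by Benjamini-Hochberg across these 27022 and called at 0.05. The fit was tested on simulated data with independent noise on each array and no difference between replicate numbers. That simulation thus did not cover the split by number seen in these arrays. The number of arrays limits the precision. Members and lists were chosen with earlier results of these data known. Members that were separated, bright (mean signal at least 1511) or at least log2 0.5 apart are given array by array, and up to 3 genes per other list by moderated t. Alternatives were other pseudocounts, filters and scalings, a replicate block, no trend, an adjusted p of 0.1, probe-set means and leaving out each array.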

Additional observations from a re-analysis of the deposited data

How the results depend on the processing

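The counts of members called (0) held under every alternative, and Sfmbt2 stayed higher and Ascl2 lower in each alternative that kept them (Ascl2 falls below the filter that keeps the upper 40%). Of all probe sets, 6 were called with the replicate number as a block, none of them a member, and 0 to 52 with 1 array left out (2 without WT replicate 1 and 52 without WT replicate 2, but 27 when Ezh2cKO replicate 2 was dropped), a fit in which the lone array is taken to vary as the other genotype does. The labels do not say that same-numbered samples were paired, and with 2 pairs the deviations of same-numbered arrays correlated at r = 0.77 over 27022 probe sets. Members separated upwards numbered 2 with a common median, and those separated downwards 3 with a common median, 2 with quantile normalization and 0 in the upper 40%. With 1 array left out, which makes separation easier, 7 to 13 were separated upwards and 2 to 16 downwards, the median of maternal genes ranged from -0.20 to 0.19 and that of paternal genes from -0.27 to 0.19. The sign of small differences turned when all kept probe sets per gene were averaged (Grb10 0.062, Igf2 -0.059, Peg3 0.031, Plagl1 0.012, Ppp1r9a 0.12) and, for Tssc4, with a common median (-0.017). It also turned with 1 array left out for 21 members, whose log2 ranges over the 4 fits were Cd81 -0.24 to 0.10, Cdkn1c -0.15 to 0.27, Copg2 -0.41 to 0.028, Dlk1 -0.50 to 0.28, Grb10 -0.16 to 0.092, Igf2r -1.01 to 0.36, Impact -0.35 to 0.047, Kcnq1ot1 -0.71 to 1.02, Magel2 -0.63 to 0.42, Meg3 -0.91 to 1.06, Mest -1.09 to 0.23, Mirg -1.01 to 0.75, Ndn -0.30 to 0.14, Osbpl5 -0.19 to 0.33, Peg10 -0.90 to 1.14, Peg3 -0.26 to 0.073, Phlda2 -0.20 to 1.15, Plagl1 -0.22 to 0.14, Ppp1r9a -0.54 to 0.40, Rian -0.97 to 0.59, Tssc4 -0.026 to 0.036. The cause was not tested, but leaving out an array leaves the numbers unbalanced between genotypes. Detection calls were not used, so how far the dim members lay above background is not known.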
